A study of Mus musculus with 12 samples.

Results

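The enzymes that start O-linked glycans and the mucins that carry many of these glycans were followed in mouse melanoma tumours. Members were taken by gene symbol, as all symbols beginning with Galnt, C1galt, Muc, Pofut, Pomt or Pomgnt, together with Ogt, Lfng, Mfng and Rfng. This gave 37 of the 909 genes that could be named on the array, measured by 39 of its 1246 probe sets, and the brightest probe set stood for a gene with several. They comprised 19 GalNAc transferases, 2 genes of the core 1 step, 7 mucins, 5 genes of O-fucose and its extension, 3 genes of O-mannose, and Ogt. Of the 39 probe sets, 3 belonged to Muc4.

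RNA of 12 tumours was hybridised to an Affymetrix array on which glycan genes are strongly represented, 1 array per sample. The tumours grew from either of 2 mouse melanoma lines. The labels describe Tm1N3 as expressing galectin-3, a galactose-binding lectin, and Tm1G3 as a line in which it is silenced. The design text adds that the parental melanoma line had itself silenced the gene and that a galectin-3 coding plasmid was used to restore it. The hosts were syngeneic wild-type mice or galectin-3 knockout (Gal3 -/-) mice, untreated as far as the labels say. Each of the 4 combinations of line and host had 3 arrays: Tm1N3 in wild-type hosts, Tm1G3 in wild-type hosts, Tm1N3 in knockout hosts and Tm1G3 in knockout hosts. Host cells inside a tumour of a knockout mouse lack the lectin, whereas the tumour cells follow their own line. As labelled, the design sets galectin-3 of the tumour cells apart from that of the host. Which line expresses the gene rests on the labels alone: the design text and the line names could be read the other way, and the signal of its gene did not separate the lines. Age and sex of the mice, the injection site and the time of collection are not given in the labels, nor whether either line is a single clone. P-values here measure only the spread between these samples, because the labels do not say that each replicate was a separate animal.

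O-glycosylation of the mucin type starts in the Golgi, where a GalNAc transferase attaches N-acetylgalactosamine to a serine or threonine. Core 1 synthase then adds the galactose that later enzymes branch, extend or cap with sialic acid, and the galactose-containing chains include ligands of galectins. Fucose, mannose and N-acetylglucosamine are joined to serine or threonine by separate enzymes: O-fucose tunes Notch receptors, O-mannose lets dystroglycan bind the matrix, and O-GlcNAc modifies proteins of the nucleus and cytoplasm. Tumours often carry shortened mucin-type glycans.

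Galnt10, one of the GalNAc transferases, was the only member to pass the test in any comparison, so its promoter is shown. The 300 bases below run from 250 before to 50 after the gene's start, at chr11:57645192-57645491 of GRCm38.p6 on the plus strand, as given by RefSeq. Capitals mark CG dinucleotides. RefSeq's table held a promoter for 27 of the 37 members.
Galnt10 promoter: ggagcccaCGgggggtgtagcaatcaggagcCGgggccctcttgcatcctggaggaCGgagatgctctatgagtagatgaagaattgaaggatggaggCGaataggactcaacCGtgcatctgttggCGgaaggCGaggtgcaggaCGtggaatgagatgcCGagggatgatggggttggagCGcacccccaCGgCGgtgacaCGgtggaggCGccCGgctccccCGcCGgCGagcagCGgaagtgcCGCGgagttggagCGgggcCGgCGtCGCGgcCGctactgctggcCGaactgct

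This window held 28 CG dinucleotides and 66.0% G or C. Over 32851 mouse promoters of the same length the median was 7 CG dinucleotides, and 85.8% of them held fewer than the Galnt10 window. Searched on both strands, none of 6 short motifs occurred in it. The E-box CACGTG is found in 7.15% of all these promoters, and the core of the M-box of pigment cell genes, CATGTG, in 14.2%. The TATA box, searched as TATAAA, is found in 13.6%, and the CCAAT box, by those letters, in 37.4%. The GC box GGGCGG is found in 35.7% and CCGGAAG, a longer form of the site of ETS factors, in 8.86%. The short ETS core GGAA was not among the motifs searched and does occur in the window. No motif of the set contains another.

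Levels are log2 signals after RMA, so 1 unit is a 2-fold difference in signal. The whole table spanned 2.14 to 13.9, and array medians differed by at most 0.0945. The log2 signal of Lgals3, which encodes galectin-3, averaged 9.97 and 9.61 in Tm1N3 and Tm1G3 tumours of wild-type hosts and 9.86 and 9.31 in those of knockout hosts. Its line difference averaged over hosts was 0.46 with a 95% interval from -0.06 to 0.97 (limma, Benjamini-Hochberg adjusted p = 0.376). Its host difference averaged over lines was -0.21 with a 95% interval from -0.72 to 0.31 (limma adjusted p = 0.852). Where its probe set lies relative to the deleted or silenced stretch is not given, so its signal does not check the labels of lines or hosts. Of 8 melanocyte markers the array measured Kit alone, so the melanoma label could not be checked against Tyr, Dct or Pmel. None of 7 epithelial and gland markers was measured either.

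The members covered most of the array's signal range. Their median log2 level over 12 arrays was 6.38, beside 5.56 over all probe sets. A probe set among the dimmest 25% of the table, under 4.22, was taken as dim, and 7 of 37 members were dim. Brightness depends on the probes as well as the transcript, so levels of different genes are given as readings of their own probe sets and not as an order of abundance. The median SD within groups was 0.125 for members and 0.121 for all probe sets, and it was highest for Galnt16 at 0.29.

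Among the GalNAc transferases, Galnt2 read brightest with a mean log2 level of 9.11. Galnt1, which like Galnt2 is expressed in most tissues, read 8.62, and Galnt12 read 8.35. Galnt10 at 7.93 and Galnt7 at 7.39 encode enzymes that prefer peptides already carrying a GalNAc. Galnt11 (7.57), Galnt4 (7.33), Galnt6 (6.68), Galnt16 (6.67), Galnt17 (6.28), Galnt18 (5.88), Galnt15 (5.50) and Galnt9 (5.03) lay between these and the dim bound. Dim readings came from Galnt14 (4.02), Galntl5 (3.86), Galnt5 (3.57), Galntl6 (2.87), Galnt3 (2.77) and Galnt13 (2.70). Galnt13 is best known from neurons, and Galnt3 from epithelia and from bone, where it acts on the hormone FGF23.

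C1galt1, the core 1 synthase, read 7.05, and C1galt1c1, the chaperone without which that enzyme is degraded, read 8.75. The mucins sat lower. Muc13, a transmembrane mucin, read 6.35, Muc4 read 5.74, Muc5b 5.60, Muc5ac 5.50, Muc1 5.46 and Muc20 4.98, while Muc15 was dim at 3.11. Muc5ac and Muc5b are secreted gel-forming mucins of airway and gastric epithelium. The other probe sets of Muc4 read 5.33 and 5.02.

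Among the genes of O-fucose, Pofut1, which fucosylates EGF-like repeats, read 8.35, and Pofut2, which acts on thrombospondin repeats, read 8.47. The fringe genes, whose products extend O-fucose on Notch, read 9.28 for Rfng, 6.38 for Mfng and 5.05 for Lfng. Pomt1 (7.67) and Pomt2 (7.28), which encode the joint O-mannosyltransferase, and Pomgnt1 (9.45), which adds N-acetylglucosamine to that mannose, were all above the dim bound. Ogt, the O-GlcNAc transferase, read 8.01. Probe sets of Galnt12, Galnt13, Muc5ac and Ogt share probes with other transcripts or similar sequences, so their signal may hold related transcripts.

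**Figure D1:**
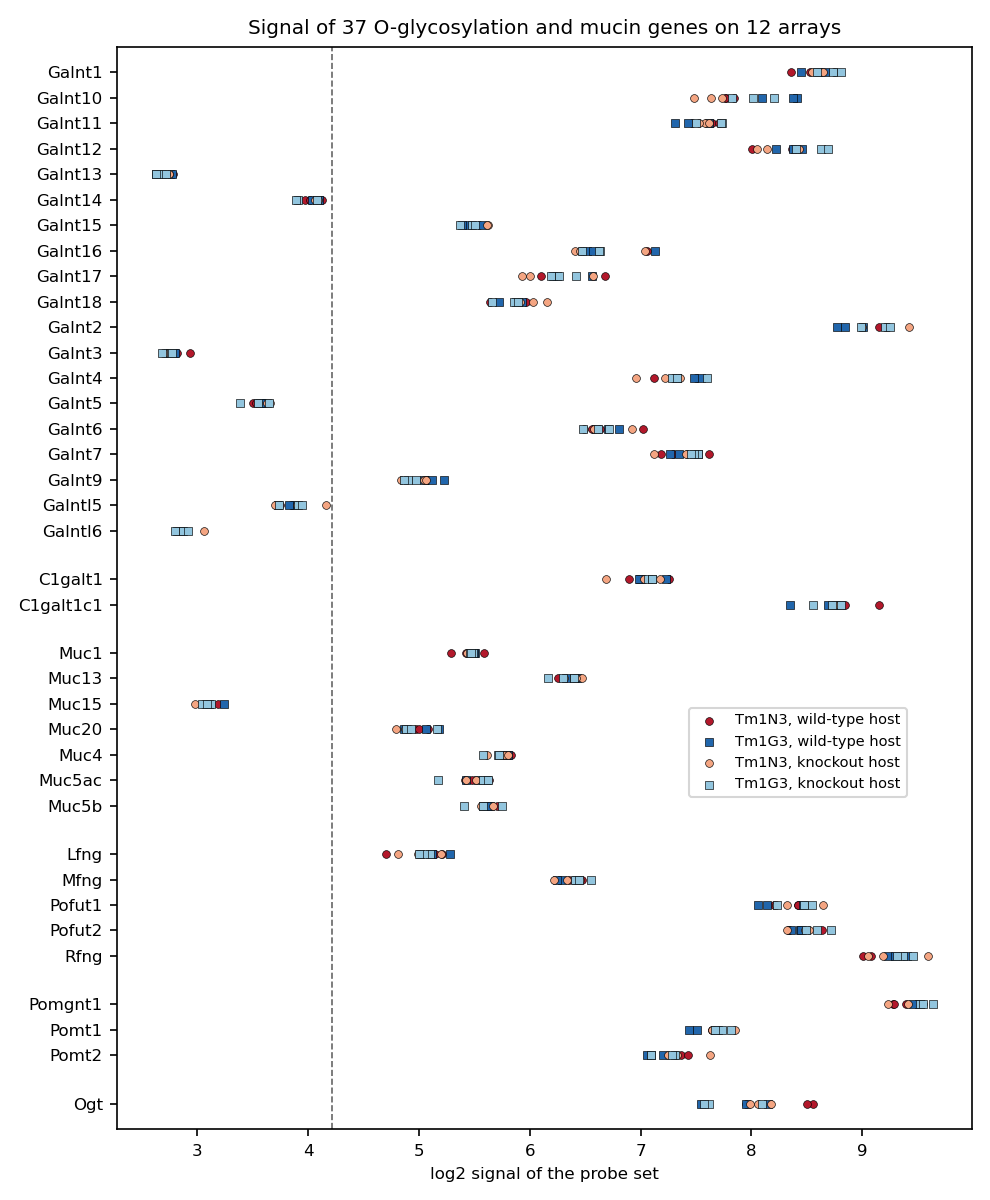
Log2 signal (horizontal axis) of the 37 genes (rows, grouped by role) on each of the 12 arrays. Circles are Tm1N3 and squares Tm1G3 tumours, dark for wild-type and pale for knockout hosts, and the dashed line marks the dim bound of 4.22, under which the means of 7 genes lie.

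The line comparison sets Tm1N3, labelled as expressing galectin-3, against Tm1G3, labelled as silenced; if those labels were exchanged, the signs below would hold for the line names only. Averaged over hosts, Galnt10 was lower in Tm1N3 than in Tm1G3 tumours (a log2 difference of -0.45), and no other member passed the test. Its log2 signals were 7.77, 7.84 and 7.76 for Tm1N3 in wild-type hosts and, with Tm1G3 in the same hosts, 8.41, 8.10 and 8.38. Knockout hosts gave 7.64, 7.74 and 7.48 for Tm1N3 tumours and 8.20, 8.01 and 7.83 for Tm1G3 tumours. Within either host every Tm1G3 array exceeded every Tm1N3 array. Across hosts the ranges touched, since the lowest Tm1G3 array (7.83, knockout host) lay just under the highest Tm1N3 array (7.84, wild-type host).

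The averaged difference of Galnt10, Tm1N3 minus Tm1G3, was -0.45 ± 0.08 (SE) on the log2 scale, a 1.37-fold lower signal with a 95% interval from 1.21 to 1.54 (limma, Benjamini-Hochberg adjusted p = 0.0093). A two-sided exact permutation of line labels, made independently within each host, gave p = 0.005, the smallest that its 400 arrangements allow. With same-numbered arrays of a line's hosts taken as pairs the units are 3 against 3, for which an exact p cannot go below 0.1. The difference was -0.51 ± 0.11 in wild-type hosts (limma adjusted p = 0.0565) and -0.39 ± 0.11 in knockout hosts (limma adjusted p = 0.169), and neither passed by itself. Their difference, the interaction, was 0.11 ± 0.16 (limma adjusted p = 0.996). In bulk tumour RNA, fewer cells of a type that expresses the gene and less RNA per cell cannot be told apart. With each array left out in turn, the averaged call was kept 12 of 12 times, with adjusted p from 0.00809 to 0.0307 in limma.

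Of all 1246 probe sets, 4.25% passed in the averaged line comparison and 2.97% passed as lower in Tm1N3 tumours, so 1 of 37 members is near the background. The 53 probe sets that passed were 16 higher and 37 lower, a split that became 29 higher and 28 lower when the values were quantile normalized again. With an array left out, the total of 53 became 32 (without array 2 of Tm1G3 in knockout hosts) to 63 (without array 1 of Tm1G3 in wild-type hosts). At an unadjusted p under 0.05 there were 6 of 37 members, beside 16.4% of all probe sets. Of the 37 differences 22 were above 0, and their median was 0.02, beside 0.00 over all probe sets. No member had lines that did not overlap across all 12 arrays, beside 3.29% of probe sets.

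**Figure D2:**
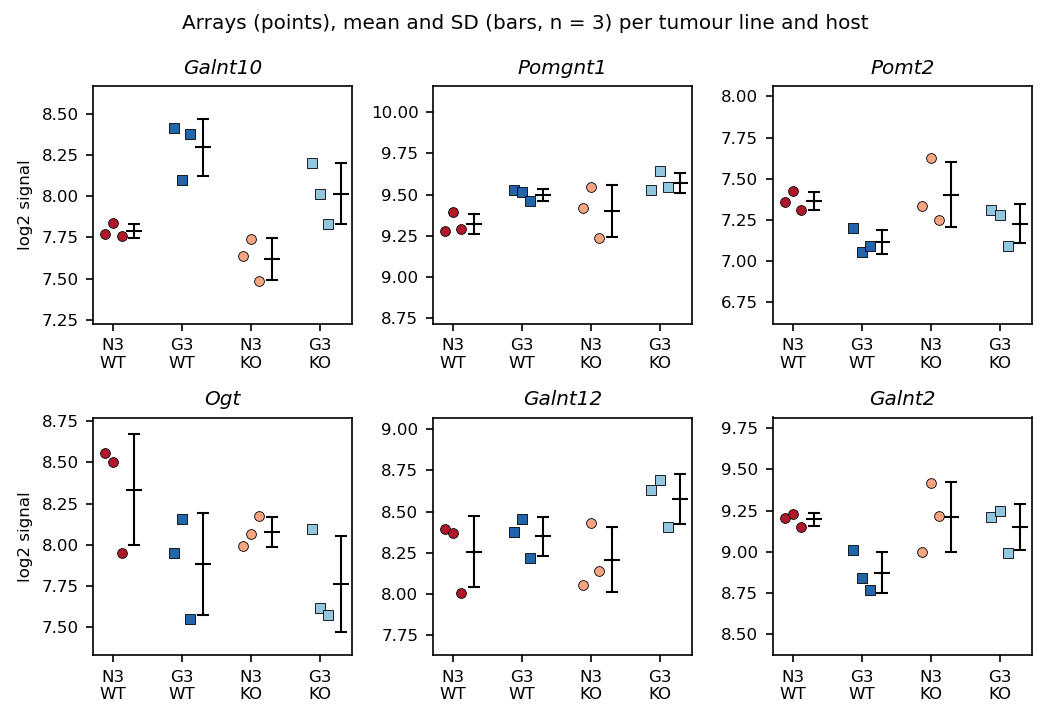
Log2 signal of the 6 members with the smallest p in the averaged line comparison, by tumour line (N3, Tm1N3; G3, Tm1G3) and host (WT, wild-type; KO, knockout). Points are arrays, and bars give the mean and SD of 3; Galnt10 reads from 7.48 to 7.84 in Tm1N3 and from 7.83 to 8.41 in Tm1G3 tumours.

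The other GalNAc transferases did not pass. Galnt2 read 9.21, 9.23 and 9.15 in Tm1N3 and 9.01, 8.84 and 8.77 in Tm1G3 tumours of wild-type hosts, without overlap. In knockout hosts the Tm1N3 arrays averaged 9.21 ± 0.21 (SD, n = 3) with a highest of 9.42, and the Tm1G3 arrays read 9.21, 9.25 and 8.99, so the lines overlapped. Its line difference was 0.32 ± 0.11 in wild-type hosts (limma adjusted p = 0.213), 0.06 in knockout hosts and 0.19 ± 0.08 on average (limma adjusted p = 0.244, two-sided exact permutation p = 0.075).

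Galnt12 had the opposite sign. It read 8.40, 8.37 and 8.01 in Tm1N3 and 8.38, 8.45 and 8.22 in Tm1G3 tumours of wild-type hosts, and 8.05, 8.43 and 8.14 against 8.63, 8.69 and 8.41 in knockout hosts. Groups overlapped in both hosts, in knockout hosts by a single array of either line. The averaged difference was -0.23 ± 0.09 (limma adjusted p = 0.241, two-sided exact permutation p = 0.065). Galnt4 differed by -0.19 and Galnt18 by 0.12 on average, and the remaining GalNAc transferases by less than either.

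In knockout hosts Galnt18, Galnt7 and the dim Galnt13 had lines that did not overlap, beside Galnt10. Galnt18 read 5.91, 6.03 and 6.16 in Tm1N3 and 5.86, 5.89 and 5.66 in Tm1G3 tumours there, a difference of 0.23 ± 0.11 (limma adjusted p = 0.563). Galnt13 read 2.74, 2.75 and 2.72 against 2.68, 2.63 and 2.72, at the low end of the scale and apart by less than this rounding shows. In wild-type hosts neither gene separated the lines: Galnt18 differed by 0.00.

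At the core 1 step, C1galt1c1 read 8.78, 9.15 and 8.85 in Tm1N3 and 8.69, 8.80 and 8.35 in Tm1G3 tumours of wild-type hosts. Knockout hosts gave 8.73, 8.75 and 8.76 against 8.81, 8.72 and 8.56. The lines overlapped by 1 array in wild-type hosts and more widely in knockout hosts. The averaged difference was 0.18 ± 0.09 (limma adjusted p = 0.366). C1galt1 itself ran from 6.69 to 7.26 in Tm1N3 and from 6.98 to 7.23 in Tm1G3 tumours, a difference of -0.07 ± 0.09.

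The mucins had the narrowest range of averaged line differences among the families with more than 1 gene. They also had the lowest median SD within groups of these families, 0.088, and signal over background was not examined. Their 7 differences ran from -0.07 for Muc20 to 0.03 for Muc13, with 4 above 0. Muc13, the brightest mucin probe set, read from 6.26 to 6.47 in Tm1N3 and from 6.17 to 6.42 in Tm1G3 tumours. Muc15, the dimmest, read from 2.98 to 3.19 and from 3.04 to 3.24. Both pairs of ranges overlapped. The 3 probe sets of Muc4 gave 0.02, 0.07 and -0.00, and none passed in limma.

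The averaged line differences in the O-fucose family ran from -0.13 to 0.05. Rfng read from 9.01 to 9.59 in Tm1N3 and from 9.23 to 9.46 in Tm1G3 tumours. Lfng read from 4.70 to 5.21 and from 5.00 to 5.28. The Tm1N3 arrays thus enclosed nearly all Tm1G3 arrays for both fringe genes.

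Pomgnt1 and Pomt2, 2 of the 3 O-mannose genes, came next to Galnt10 in unadjusted p, with opposite signs. Pomgnt1 read 9.28, 9.39 and 9.29 in Tm1N3 and 9.53, 9.52 and 9.46 in Tm1G3 tumours of wild-type hosts, and 9.42, 9.55 and 9.24 against 9.53, 9.64 and 9.55 in knockout hosts. The lines were apart in wild-type hosts and overlapped through 1 Tm1N3 array in knockout hosts. The averaged difference was -0.18 ± 0.06 (limma adjusted p = 0.124; two-sided exact permutation p = 0.01). Pomt2 read 7.36, 7.42 and 7.31 against 7.20, 7.06 and 7.09 in wild-type hosts, and 7.33, 7.63 and 7.25 against 7.31, 7.28 and 7.09 in knockout hosts. Its lines too were apart in wild-type hosts alone, and the averaged difference was 0.21 ± 0.07 (limma adjusted p = 0.146; two-sided exact permutation p = 0.02). Pomt1, its partner in the enzyme, differed by 0.05 ± 0.06. The permutations of Pomgnt1 and Pomt2 took same-numbered arrays of a line's hosts as independent. Both genes were permuted because of their small limma p in this same comparison, and the permutation p-values are not adjusted over members.

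Ogt showed the widest spread among these. It read 8.56, 8.50 and 7.95 in Tm1N3 and 7.95, 8.15 and 7.55 in Tm1G3 tumours of wild-type hosts, and 7.99, 8.06 and 8.17 against 8.10, 7.61 and 7.58 in knockout hosts. Lines overlapped in both hosts. The averaged difference was 0.38 ± 0.14 (limma adjusted p = 0.191; two-sided exact permutation p = 0.05), and its 95% interval reached 0.70, a 1.62-fold difference. For the other 35 members that did not pass, the interval lay within 0.5 of 0 on either side. For the 28 of these that were not dim, differences beyond 0.5 thus lay outside the intervals. Smaller ones were not resolved with 6 arrays per line. The other 7 were dim, with signal over background not examined, so their narrow intervals do not bound differences in transcript.

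**Figure D3:**
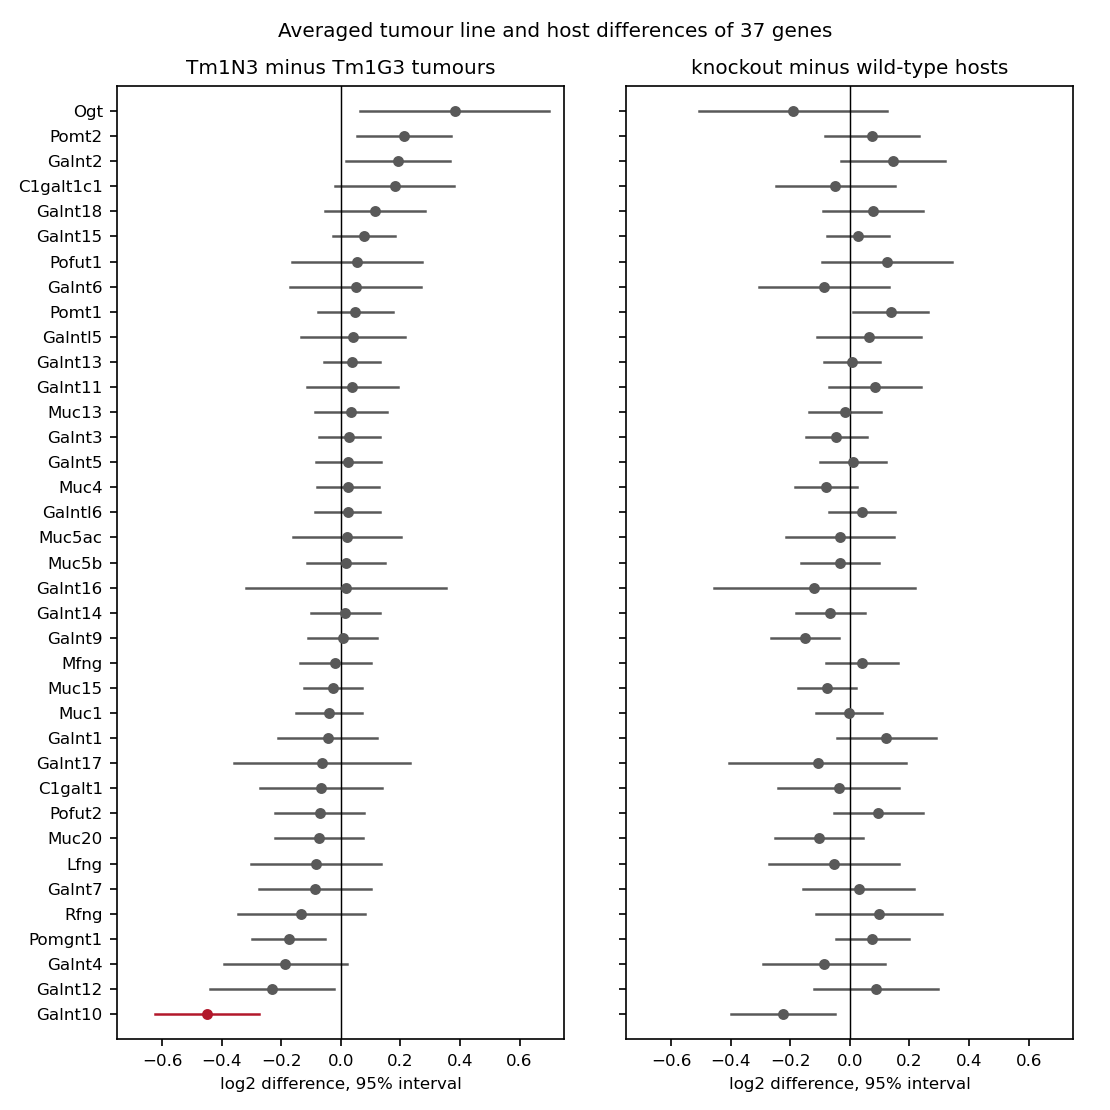
Log2 difference (horizontal axis) with 95% interval for each of the 37 genes, Tm1N3 minus Tm1G3 averaged over hosts (left) and knockout minus wild-type hosts averaged over lines (right). Galnt10, in red at -0.45, is the only gene that passed; the right panel holds no gene that passed.

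In wild-type hosts taken alone, no member passed in limma, beside 0.883% of probe sets, or 11. With an array left out that count ran from 2 (without array 3 of Tm1G3 in wild-type hosts) to 21 (without array 3 of Tm1N3 in knockout hosts). At an unadjusted p under 0.05 there were 6 of 37 members (Galnt10, Galnt2, Pomt2, C1galt1c1, Pomgnt1 and Ogt), beside 13.1% of probe sets. Lines did not overlap for 4 members, Galnt10, Galnt2, Pomgnt1 and Pomt2, beside 16.9% of probe sets. In knockout hosts no member passed either, beside 0.722%, or 9 probe sets, and with an array left out from 5 (without array 1 or 2 of Tm1G3 in knockout hosts) to 13. An unadjusted p under 0.05 was reached by Galnt10 and Galnt12, 2 of 37 beside 9.47%, and lines did not overlap for 4 members beside 13.7%. These shares were near or under the background. Galnt10 passed in wild-type hosts (limma adjusted p = 0.0436) when array 1 of Tm1G3 in knockout hosts was left out of the shared fit.

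Among neighbouring steps of the pathway, transferases and carriers that were not members gave further calls. The lists for these steps were chosen with earlier results of these data known. Of 22 listed genes for extending and capping O-glycans 21 were measured, and 3 were lower in Tm1N3 tumours and none higher, beside 2.97% of all probe sets lower. Their median difference was -0.04, beside 0.00 over all probe sets. St6galnac6, a sialyltransferase known mainly for gangliosides, read from 7.68 to 7.95 in Tm1N3 and from 8.05 to 8.30 in Tm1G3 tumours, without overlap. It fell by 0.36 ± 0.06 on the log2 scale (limma adjusted p = 0.0060). St3gal3, a sialyltransferase that mostly caps N-glycan and glycolipid chains, read from 7.96 to 8.53 and from 8.50 to 8.66, and fell by 0.41 ± 0.09 (limma adjusted p = 0.0235). B3gnt3, which elongates core 1, read from 5.35 to 5.87 and from 5.87 to 5.99, and fell by 0.27 ± 0.06 (limma adjusted p = 0.0299). With each array left out in turn, the call of St6galnac6 was kept 12 of 12 times. That of St3gal3 was kept 7 times, with adjusted p in limma up to 0.0732; it was lost without array 3 of Tm1N3 or array 2 or 3 of Tm1G3 in wild-type hosts, or array 2 or 3 of Tm1G3 in knockout hosts. That of B3gnt3 was kept 5 times, with adjusted p in limma up to 0.0821; it was lost without array 1 or 2 of Tm1N3 or 2 or 3 of Tm1G3 in wild-type hosts, or any Tm1G3 array of knockout hosts. Quantile normalization again ended the calls of St6galnac6 (limma adjusted p = 0.0689) and St3gal3 (limma adjusted p = 0.0756), and a random replicate block that of B3gnt3 (limma adjusted p = 0.0756).

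Of 15 mucin-like carrier proteins 11 were measured, 1 higher and 1 lower, beside 4.25% of all probe sets called, with a median difference of 0.01. Podxl2, a sialomucin of the CD34 family, read from 6.54 to 7.03 in Tm1N3 and from 5.76 to 6.47 in Tm1G3 tumours, a rise of 0.66 ± 0.13 (limma adjusted p = 0.0211). That call was kept in 9 of 12 fits with an array left out and lost without array 1 of Tm1N3 in wild-type hosts or array 2 or 3 of Tm1G3 in knockout hosts (limma adjusted p up to 0.0564). Havcr2, an immune receptor with a mucin domain, read from 5.77 to 5.91 and from 6.07 to 6.43, and fell by 0.40 ± 0.05 (limma adjusted p = 0.0013), kept 12 of 12 times. Lines of both genes did not overlap.

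The 9 Notch receptors and ligands, on which O-fucose and the fringes act, gave no call in limma and 1 gene at an unadjusted p under 0.05, beside 4.25% and 16.4% of all probe sets as for the lists that follow, with a median of 0.07. The gene was Dll1, a ligand, at 0.18 ± 0.08. Of 12 genes for O-fucose supply and other sugars on EGF-like repeats 5 were measured and none passed in limma, with 1 at an unadjusted p under 0.05. Of 16 genes for O-mannose supply and dystroglycan 11 were measured and Pmm1, a phosphomannomutase, was lower by limma at -0.30 ± 0.07 (adjusted p = 0.0470). That call was kept in only 2 of 12 fits with an array left out (array 1 of either line in knockout hosts; adjusted p in limma up to 0.121) and was lost with the replicate number as a fixed block (limma adjusted p = 0.0781) and as a random block (limma adjusted p = 0.112). Quantile normalization again and centring on array medians ended it too, with adjusted p in limma up to 0.246 over these settings. The 11 of 12 measured genes for O-GlcNAc and nucleotide sugar supply gave no call in limma and 2 at an unadjusted p under 0.05, 1 of them Oga, which removes O-GlcNAc, at 0.17 ± 0.07. Of 3 genes listed for GalNAc removal 2 were measured. Galns, a lysosomal sulfatase that acts on glycosaminoglycans rather than mucins, read from 7.26 to 7.64 in Tm1N3 and from 7.73 to 7.90 in Tm1G3 tumours, and fell by 0.33 ± 0.06 (limma adjusted p = 0.0130).

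Some cell markers passed in the same comparison as Galnt10, beside 4.25% of all probe sets. The marker lists were chosen with earlier results of these data known, so these calls are no independent observation. Kit, a receptor of melanocytes and mast cells and the only one of 8 melanocyte markers measured, read from 4.91 to 6.07 in Tm1N3 and from 6.20 to 7.22 in Tm1G3 tumours, and fell by 0.99 ± 0.15 (limma adjusted p = 0.0038). Of 8 macrophage markers 5 were measured and none passed in limma, none at an unadjusted p under 0.05 either; their median difference was -0.33, and the mean of the list ran from 6.27 to 7.98 in Tm1N3 and from 6.87 to 7.70 in Tm1G3 tumours. Of 7 T and NK cell markers 2 were measured, with list means of at most 5.76 in Tm1N3 and at least 5.71 in Tm1G3 tumours, and the chemokine Ccl5 fell by 0.65 ± 0.12 (limma adjusted p = 0.0113), while the other marker differed by 0.08. Of 8 endothelial markers 5 were measured, with list means from 6.76 to 7.15 and from 6.82 to 7.32, and Icam2 fell by 0.40 ± 0.08 (limma adjusted p = 0.0215); 2 of the 5 differences were above 0 and their median was -0.00. The Icam2 call was lost without array 2 or 3 of Tm1N3 or array 3 of Tm1G3 in wild-type hosts (limma adjusted p up to 0.0558) and with a random replicate block (limma adjusted p = 0.0545). Of 9 fibroblast and matrix markers 5 were measured, with list means from 6.14 to 7.60 and from 6.45 to 7.05, and Fbln5 rose by 0.76 ± 0.12 (limma adjusted p = 0.0038), while 3 of the 5 differences were below 0 and their median was -0.00. Of 6 neutrophil markers 2 were measured and none passed in limma, with list means from 4.94 to 5.41 and from 4.97 to 6.33. The part of these cell types in the Galnt10 difference was not tested.

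As labelled, the host comparison asks how galectin-3 in the host tissue bears on the tumour, although the Lgals3 signal did not separate the hosts. No member passed in limma in either line or on average over lines, and neither did any other probe set (0.0% of 1246 in each). Averaged over lines, 3 of 37 members had an unadjusted p under 0.05, beside 6.26% of probe sets, and none had hosts that did not overlap across all 12 arrays, beside 0.562%. Of the 37 differences, knockout minus wild-type, 18 were above 0, and the median was -0.00 beside -0.01 over all probe sets.

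The 3 members were Galnt9, Galnt10 and Pomt1. Galnt9 read 5.08, 5.06 and 5.07 in Tm1N3 and 5.22, 5.05 and 5.12 in Tm1G3 tumours of wild-type hosts, and 5.05, 5.07 and 4.84 in Tm1N3 and 4.91, 4.87 and 4.97 in Tm1G3 tumours of knockout hosts. Knockout arrays lay under all wild-type arrays in Tm1G3 tumours and overlapped them in Tm1N3 tumours. The averaged host difference was -0.15 ± 0.05 (limma adjusted p = 0.749). Galnt10 differed by -0.23 ± 0.08 between hosts (limma adjusted p = 0.749, two-sided exact permutation p = 0.02), with knockout means lower in both lines. That permutation took same-numbered arrays of a line's hosts as independent and is not adjusted over members. For the other members permuted, the two-sided exact permutation p between hosts ran from 0.14 (Galnt2) to 0.405 (Galnt12). Pomt1 ran between 7.44 and 7.70 with wild-type hosts and between 7.64 and 7.85 with knockout hosts, a difference of 0.14 ± 0.06 (limma adjusted p = 0.749).

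All 7 mucin differences were below 0, from -0.10 for Muc20 to -0.00 for Muc1, and none passed in limma. All 3 O-mannose genes were above 0, from 0.07 to 0.14. Of all 1246 probe sets, 668 were below 0 and 578 above. Their median of -0.011 became 0.007 with centring on array medians, so the sign of the smallest differences depends on the processing. For 36 of 37 members the 95% interval of the averaged host difference lay within 0.5 of 0, and the interval of Ogt reached -0.51. Of the 36, 7 were dim, and their intervals do not bound differences in transcript.

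In Tm1N3 tumours no member reached an unadjusted p under 0.05 between hosts, beside 4.33% of probe sets. Hosts did not overlap for 3 members there, Galnt10, C1galt1c1 and Muc20, beside 7.62%. The smallest unadjusted p belonged to Galnt18, at 0.19 ± 0.11, followed by Muc20 at -0.16 ± 0.09, which read 5.08, 4.98 and 5.00 in wild-type and 4.92, 4.79 and 4.88 in knockout hosts. In Tm1G3 tumours 4 members reached an unadjusted p under 0.05, beside 6.18%: Galnt9 at -0.22 ± 0.07, Galnt10 at -0.28 ± 0.11, Galnt2 at 0.28 ± 0.11 and Pomt1 at 0.20 ± 0.08 (limma adjusted p = 0.752 for each). Hosts did not overlap for 4 members there, Galnt9, Muc4, Pofut2 and Pomgnt1, beside 12.4%. No gene of the neighbouring pathway lists passed between hosts.

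The interaction tests whether the line difference depended on the host. No member and no other probe set passed in limma (0.0%), and no member had an unadjusted p under 0.05, beside 2.81% of probe sets. The smallest unadjusted p among members belonged to Mfng, at -0.23 ± 0.11, then Galnt11 at -0.24 ± 0.14 and Galnt2 at -0.26 ± 0.16 (limma adjusted p = 0.996 for each). Mfng read 6.42, 6.35 and 6.47 in Tm1N3 and 6.29, 6.24 and 6.41 in Tm1G3 tumours of wild-type hosts, and 6.34, 6.22 and 6.45 against 6.56, 6.41 and 6.45 in knockout hosts. Its Tm1N3 mean was the higher in wild-type hosts and the lower in knockout hosts, within overlapping arrays. With 3 arrays in each cell of the design, only 25 of 37 members had an interaction interval within 0.5 of 0. Of these, 7 were dim.

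Some members varied more between arrays of a group than between groups. Galnt16, Galnt17 and Galnt6, chosen here after their values were seen, had 1 high array in each of 3 groups. Galnt16 read 6.61, 6.47 and 7.06 in Tm1N3 and 6.52, 6.57 and 7.13 in Tm1G3 tumours of wild-type hosts, then 6.41, 6.46 and 7.04 in Tm1N3 and 6.64, 6.47 and 6.63 in Tm1G3 tumours of knockout hosts. The array numbered 3 was thus the high one in every group but the last. For Galnt17 the same arrays stood 0.51, 0.33 and 0.60 over the mean of the other arrays of their group, and for Galnt6 0.42, 0.15 and 0.39. In Tm1G3 tumours of knockout hosts the array numbered 3 stood 0.07 over the others for Galnt16, 0.02 for Galnt6 and -0.04 for Galnt17.

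On these 3 arrays the mean of the 5 fibroblast and matrix genes was 7.50, 7.05 and 7.60, and on the other 9 it ran from 6.14 to 7.03. The mean of the 5 macrophage markers on them was 7.78, 7.59 and 7.98, and elsewhere it ran from 6.27 to 7.70. The 5 fibroblast and matrix genes did not all follow these arrays. Pdgfra read 7.43, 7.14 and 7.96 on them and at most 6.97 elsewhere, Lum 7.72, 6.83 and 7.57 against at most 7.04, and Dcn 9.91, 9.59 and 9.86 against at most 9.65. Pdgfrb read 6.83, 6.75 and 7.38 against at most 7.34, and Fbln5 5.61, 4.93 and 5.23 against at most 5.94. The part of these cells in the 3 genes was not tested.

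**Figure D4:**
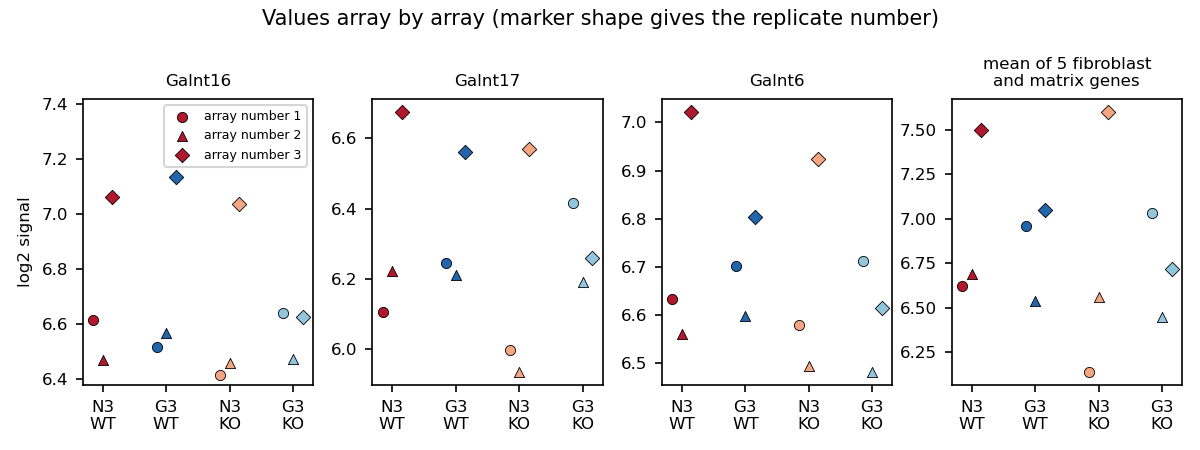
Log2 signal of Galnt16, Galnt17 and Galnt6 and the mean of 5 fibroblast and matrix genes on each array, by line (N3, G3) and host (WT, KO); the marker shape gives the replicate number. The arrays numbered 3 (diamonds) stand at 7.06, 7.13 and 7.04 for Galnt16 in 3 groups and at 6.63 in Tm1G3 tumours of knockout hosts.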

How the data were processed

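Total RNA was extracted with Trizol and labelled with biotin as cRNA for Affymetrix hybridisation, per the labels' protocols. The authors deposited log2 signals for 1246 probe sets. RMA is the processing named in the submitters' processing notes, without a version. The sources used here do not state the array's build. Signal over background could not be examined from these values, which were used as deposited.

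The unversioned RefSeq accession in a probe set's name was matched to mouse symbols (RefSeq, GRCm38.p6), which named 963 probe sets. Of the rest, 261 carried UCSC names, 21 an unmatched RefSeq accession and 1 another name, and these stayed unnamed but were tested. The members and the pathway and marker lists were chosen with earlier results of these data known. Members named in full are those that passed, the 5 with the smallest p in the averaged line comparison, the 3 with the smallest p in each other comparison, and the brightest and dimmest of each family.

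Means of 4 groups of 3 arrays were fitted with limma 3.58.1 in R 4.3.3, with 8 residual and 2.39 prior degrees of freedom. P-values were adjusted by Benjamini-Hochberg over the 1246 probe sets of each of 7 comparisons, with a threshold of 0.05. Intervals cover 95%. Single members were also tested by exact permutation, for which 3 against 3 arrays cannot go below 0.1. Every permutation took the arrays as independent and made no allowance for same-numbered arrays. The procedure was tested on simulated data, and no 2 arrays held identical values.

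Groups share replicate numbers in the labels. Deviations of same-numbered arrays from their group means gave correlations over all probe sets of 0.184 to 0.752 across hosts in Tm1N3 and of 0.249 to 0.308 across hosts in Tm1G3, so numbers were taken to pair hosts within a line. Between lines the correlations ran from -0.660 to 0.544, the highest of them above every value within Tm1G3. Arrays with different numbers were not compared, so the pairing is an assumption and not a known part of the design. What a number stands for is not given in the labels. Alternatives were quantile normalization again, centring on array medians, leaving out the dimmest 25% of probe sets, fitting only the groups compared, the mean of a gene's probe sets, each array left out in turn, and the replicate number as a fixed block. A random replicate block within a line was added after seeing the data.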

Additional observations from a re-analysis of the deposited data

How the results depend on the processing

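The count of members that passed was the same in every comparison and alternative run, 1 in the averaged line comparison and 0 in the others, with 1 exception: in wild-type hosts it ran from 0 to 1 with an array left out, 1 without array 1 of Tm1G3 in knockout hosts. The 1 member was Galnt10 in each case. With a fixed replicate block its averaged line difference was -0.45 (limma adjusted p = 0.0151) and with a random replicate block -0.45 (limma adjusted p = 0.0230). Neither replicate block changed the call of any member. Quantile normalization again gave -0.39 (limma adjusted p = 0.0138). For 24 log2 differences of single members, those with the smallest p in each comparison and Galnt10, the alternatives kept the direction and the side of the threshold in 156 of 156 fits without an array left out and in 287 fits with one. The other was Galnt10 in wild-type hosts, whose adjusted p in limma ran from 0.0436 to 0.224. These counts say little about robustness. The replicate blocks, fitting only the groups compared and leaving out dim probe sets cannot change a log2 difference here. Neither can leaving out an array of a group that is not compared. The host and interaction differences also lay far from the threshold. Medians over members, all near 0, moved by more than the usual spread in 4 fits without and 6 with an array left out. Over all probe sets, 53 passed in the averaged line comparison, and 32 to 63 with an array left out. In wild-type hosts 11 passed, 2 to 21 with an array left out, 6 with centring on medians and 3 fitting only those groups; in knockout hosts 9 passed, 5 to 13 with an array left out, 4 fitting only those groups and 6 with a random replicate block. Only 12 arrays limit the precision, and signal over background was not examined for the 7 dim members.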

Other observations

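The array numbered 3 stood below the mean of the other arrays of its group in all 4 groups for 8 of 37 members (Galnt1, Galnt11, Galnt12, Pofut1, Rfng, Pomgnt1, Pomt1 and Pomt2) and above it in all 4 for 3 members (Galnt16, Galnt6 and Muc13). This split was looked at after the values were seen. The matching count over all probe sets was not made, so the split is no result about the members. Over all probe sets, deviations of the arrays numbered 3 correlated across hosts at 0.752 in Tm1N3 and 0.249 in Tm1G3. For Galnt1 the gaps were -0.28, -0.19, -0.15 and -0.18, in the order Tm1N3 and Tm1G3 in wild-type hosts, then Tm1N3 and Tm1G3 in knockout hosts. For Galnt12 they were -0.38, -0.20, -0.10 and -0.25, although in Tm1N3 tumours of knockout hosts the lowest array was number 1. These gaps were not tested.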
